A study of Mus musculus with 18 samples.

Results

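The miR-148 family (mmu-miR-148a, mmu-miR-148b and mmu-miR-152) and the miR-130 family (mmu-miR-130a and mmu-miR-130b) were followed in mouse liver after repeated doses of benzo(a)pyrene (BaP), whose metabolites bind DNA. The prefix mmu, for mouse, is left out below. The members were picked by miRNA name and not by any measured value, although earlier results of these data were known. They are 5 of the 576 miRNA names on the array, with 10 of its 1712 probes and 100 of its 11540 non-control spots. All animals were 25-week-old male Muta™Mouse, transgenic mouse strain 40.6, which carries a lacZ transgene in every cell. All were gavaged for 28 days and killed 3 days after the last dose. The control group (n = 3) received the olive oil vehicle alone, and the other groups (n = 5 each) received 25, 50 or 75 mg/kg/day BaP in olive oil. The paper dosed 5 vehicle animals and removed miRNA arrays that boxplots and clustering marked as poor. Only 3 control arrays were available here, so the control group is smaller than the one dosed. Each animal had its own 1-colour Agilent miRNA array. Replicate numbers only name arrays. The values below are log2 spot signal after cyclic loess normalisation, with no background subtracted, unless another scale is named.

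A miRNA guides the silencing complex to messenger RNAs whose sequence pairs with its seed, the stretch near its 5′ end, and lowers their stability and translation. Members of a family have the same seed and can therefore pair with the same sites, while the bases outside the seed add to pairing at some of them. miR-148a is among the abundant miRNAs of hepatocytes and is known for acting on transcripts of lipid handling and on the DNA methyltransferase Dnmt1, and miR-130a is known for acting on Pparg, a nuclear receptor of lipid storage.

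The mature sequences are shown because both families carry nearly the same seed, shifted by 1 base. Sequences and positions are from RefSeq (GRCm38.p6), all 5 names matched an entry, and a name without an arm was read as the 3p arm. Capitals mark the seed, bases 2 to 8 counted from the 5′ end.
miR-148a: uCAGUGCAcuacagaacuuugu
miR-148b: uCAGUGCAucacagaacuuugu
miR-152: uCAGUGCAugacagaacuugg
miR-130a: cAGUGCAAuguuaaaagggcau
miR-130b: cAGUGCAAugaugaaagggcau

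The seed of the miR-148 family, CAGUGCA, pairs with UGCACUG in a target, and that of the miR-130 family, AGUGCAA, pairs with UUGCACU. Both contain the 6 bases AGUGCA, which start at position 3 in the first family and at position 2 in the second. Among 1679 mature mouse sequences in RefSeq, 3 (0.179%) carried CAGUGCA as their seed, and they were the members themselves. AGUGCAA was the seed of 7 (0.417%), and AGUGCA lay within the seed of 12 (0.715%). miR-301b, a relative named below, was not among these, so the counts hold only for this set of sequences.

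Outside the seed the members of a family are close to identical. From miR-148a to miR-148b the differences were C9U and U10C, with positions counted from 1 at the 5′ end. From miR-148a to miR-152 they were C9U, U10G and U20G, and miR-152 is 21 bases long against 22. Within the other family, miR-130a and miR-130b differed by U11A and A13G.

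The members lie on 5 chromosomes. The miR-148a sequence is at chr6:51269829-51269850 on the minus strand, inside the annotated span of Gm38821. miR-148b is at chr15:103285185-103285206 on the plus strand inside Copz1, and miR-152 is at chr11:96850439-96850459 on the plus strand inside Copz2, so that their hosts encode a pair of related coatomer subunits. miR-130a is at chr2:84741116-84741137 on the minus strand with no enclosing gene. miR-130b is at chr16:17124071-17124092 on the minus strand, inside 2610318N02Rik, and its hairpin is 257 bases from that of miR-301b, another miRNA of the same strand.

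The arrays came from 3 slides, which matter for the values below. Slide 1 held control 1 and replicates 1 and 2 of each dose, slide 2 held replicates 3 and 4 at 50 and 75 mg/kg/day with no control, and slide 3 held controls 2 and 3 with the remaining dosed arrays. Median spot signal lay between 39.5 and 69, the scanner software marked 5.72% to 16.5% of spots as well above background, and no spot was saturated. The hepatocyte miRNA miR-122 was well above background on all 18 arrays.

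Only 1 member of each family was well above background on every array. miR-148a and miR-130a were each well above background on 360 of 360 spots, while miR-148b reached that level on 63, miR-152 on 15 and miR-130b on 2 of 360. The presence filter required at least 0.5 of a probe's spots on at least 0.8 of the arrays of a group, and it left 69 miRNA names. miR-148a and miR-130a passed it in every group, and the other members passed it in none. By the scanner software's own call for a whole miRNA, miR-148b was detected on 13 of the 18 arrays, miR-152 on 3 and miR-130b on 0.

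Of the 63 spots of miR-148b, 62 came from the probe A_54_P1382. It had 10, 7 and 1 of 10 spots well above background on controls 1, 2 and 3. At 25 mg/kg/day it had 10 and 8 spots on replicates 1 and 2 and 0 on replicates 3, 4 and 5. At 50 mg/kg/day it had 5, 6 and 3 spots on replicates 2, 3 and 5 and 0 on the others, and at 75 mg/kg/day it had 4 and 8 on replicates 2 and 5 and 0 on the others. All 3 controls thus had at least 1 spot of miR-148b well above background and each dosed group held arrays with 0. Of these spots 37 were on slide 1. Arrays also differed in the share of all their spots well above background. At 25 mg/kg/day this share was 16.5% and 13.2% on replicates 1 and 2 and 9.71%, 5.72% and 7.21% on replicates 3 to 5. The counts did not follow it throughout, since at 75 mg/kg/day it was 10.5% on replicate 1 and 10.3% on replicate 5. Detection was not tested between groups. The other probe of miR-148b had 1 spot, on control 3.

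All 15 spots of miR-152 came from the probe A_54_P2334 and from slide 1. They were 4 on control 1 and 10 and 1 on replicates 1 and 2 at 25 mg/kg/day. At 50 and 75 mg/kg/day no spot of miR-152 was well above background. miR-130b had 1 spot on each of 2 arrays at 50 mg/kg/day, replicates 1 and 4. The limits are those of array signal over background, and a spot below it does not show that the miRNA was absent.

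**Figure D1:**
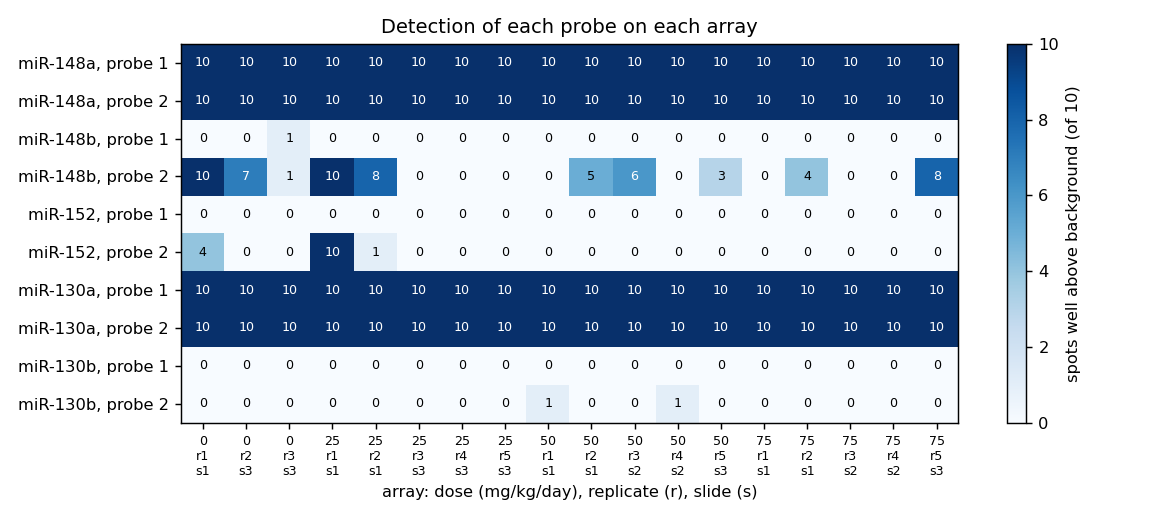
Number of spots well above background (colour and printed number, of 10) for each of the 10 probes (rows) on each of the 18 arrays (columns, labelled by BaP dose in mg/kg/day, replicate and slide). miR-148a and miR-130a filled all 10 spots of both probes on every array, while miR-148b, miR-152 and miR-130b were seen on 10, 3 and 2 arrays.

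Relatives that share a seed or a hairpin with a member were at background too. Of 9 such names fixed in a list, 5 were on the array. miR-301a, which has the miR-130 seed, had 2 spots well above background, the opposite strands miR-148a* and miR-130b* had 2 each, and miR-301b and miR-721 had 0. None of the 5 passed the presence filter.

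miR-148a signal was on average lower than control at each dose, except at 75 mg/kg/day on the background-subtracted total gene signal. In the controls it was 8.68, 8.59 and 8.69 for replicates 1 to 3, with a mean of 8.65 ± 0.06 (SD, n = 3). At 25 mg/kg/day it was 8.35, 8.47, 8.71, 8.47 and 8.48 for replicates 1 to 5, with a mean of 8.49 ± 0.13 (SD, n = 5). Of these arrays 4 lay below every control and replicate 3 lay above them all.

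At 50 mg/kg/day miR-148a was 8.28, 8.47, 8.52, 8.51 and 8.48, with a mean of 8.45 ± 0.10 (SD, n = 5). The highest dose gave 8.26, 8.33, 8.57, 8.55 and 8.53, with a mean of 8.45 ± 0.14 (SD, n = 5). In both groups all 5 arrays lay below every control in this mean of 2 probes. Such a separation downwards was found for 7.25% of the 69 miRNAs at the middle dose and for 8.7% at the highest. Neither probe showed it alone. A_54_P1273 had 4 of 5 arrays below every control at the middle dose and 3 at the highest, and A_54_P1274 had 2 at each. Such counts, here and for miR-130a below, also set arrays against controls of other slides. Over all arrays of a slide miR-148a averaged 8.41, 8.54 and 8.56 on slides 1, 2 and 3, and slide 2 had no control. The means of the 2 higher doses were equal within their spread, and the gap from 25 to 50 mg/kg/day was also smaller than the SD of either group.

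In the limma fit with slide as a block, miR-148a differed from control by -0.15 ± 0.06 (log2 change ± SE) at 25 mg/kg/day, or -10.0% of the signal. The 95% confidence interval was -0.29 to -0.02 and the FDR-adjusted P was 0.432. The change was -0.22 ± 0.07 at 50 mg/kg/day (interval -0.37 to -0.07, adjusted P = 0.0880), or -14.2%. The change at the highest dose was -0.22 ± 0.07 (interval -0.37 to -0.07, adjusted P = 0.0669), or -14.3%, but +0.03 where the scanner's background-subtracted total gene signal was used, a scale on which the median of all tested miRNAs was itself at 0.18. In whole liver, fewer cells of a type and less RNA per cell cannot be told apart.

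miR-148a therefore did not pass an adjusted P of 0.05 at any dose in this fit. With the log2 values that the authors deposited it did at 25 mg/kg/day, at -0.39 ± 0.12 (adjusted P = 0.0493). Its change at that dose also moved with other settings, to -0.08 with quantile normalisation, -0.63 ± 0.42 with centred array medians, -0.05 on the processed signal, -0.03 on the total gene signal and -0.10 without the 2 arrays that had the fewest spots well above background. At the middle and highest dose it was -0.06 and +0.03 on the total gene signal, -0.63 and -0.60 with centred array medians, -0.20 and -0.14 with quantile normalisation and -0.16 and -0.11 on the processed signal. Its unadjusted P was 0.0313, 0.00638 and 0.00600 at 25, 50 and 75 mg/kg/day. Among the 69 miRNAs it had the 3rd, 2nd and 4th lowest change at these doses, where the medians of all tested were -0.02, -0.02 and -0.03. As a measure of the size of a response on these arrays, miR-34a, a p53-responsive miRNA, differed from control by 0.43 (adjusted P = 0.378), 1.17 (0.000714) and 2.07 (5.4e-07) at the same doses. Its 2 probes were present on 0 and 2 of the 3 controls, so it passed the presence filter only through dosed groups. With control signal near background and none subtracted, it is not a like measure for miR-148a.

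Single arrays moved these values. Without control 1, the single control on slide 1, the miR-148a change was -0.08, -0.14 and -0.14 at 25, 50 and 75 mg/kg/day. Without replicate 3 at 25 mg/kg/day it was -0.20, -0.23 and -0.23, with adjusted P of 0.129, 0.0354 and 0.0228. The highest dose was also past the threshold when control 2 (adjusted P = 0.0285), replicate 1 of the lowest dose (0.0410) or replicate 5 of the highest dose (0.0488) was left out.

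The miR-148a difference was larger on slide 1 than on slide 3. On slide 1 the dosed arrays were lower than control 1 by a mean difference of -0.28, -0.31 and -0.39 at 25, 50 and 75 mg/kg/day. On slide 3 the differences from the mean of controls 2 and 3 were -0.09, -0.16 and -0.10. The direction was the same on both slides, with 1 control on the first and 2 on the second, and the difference between slides was not tested. Slide 2 had no control, and its 4 dosed arrays lay between 8.51 and 8.57. With slide as a block in the limma fit, slide 2 gave no direct comparison of a dose with control. For both members at 50 and 75 mg/kg/day, that comparison rested on 2 arrays of each dose on slide 1 and 1 on slide 3.

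The 2 probes of miR-148a gave similar fitted changes, although neither alone had every array of a dose below the controls. The changes were -0.16, -0.25 and -0.22 at the 3 doses for the probe A_54_P1273, and -0.14, -0.19 and -0.23 for the probe A_54_P1274. The lowest adjusted P of either over the 112 probes tested was 0.0512, for A_54_P1273 at 75 mg/kg/day. The slides shifted the probes unequally, since at the highest dose A_54_P1274 averaged 8.49 on slide 1 and was 8.97 on the array of slide 3, while A_54_P1273 was at 8.11 and 8.10.

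**Figure D2:**
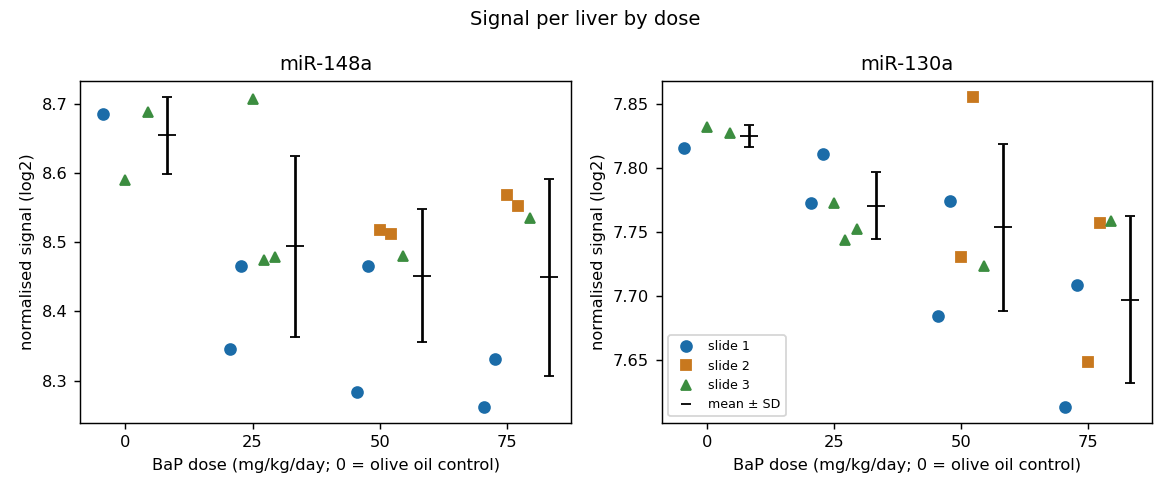
Normalised signal (log2, vertical axis) of miR-148a and miR-130a in each liver by BaP dose (mg/kg/day), with the slide of each array as marker and colour and the mean ± SD in black. In the mean of 2 probes, every array at the 2 higher doses lay below the controls for miR-148a. The same held at the lowest and highest dose for miR-130a. Alone, only the probe A_54_P1044 of miR-130a at 75 mg/kg/day separated in this way. On the background-subtracted total gene signal the change of miR-148a and miR-130a at 75 mg/kg/day was +0.03 and +0.11.

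On the normalised signal the differences of miR-130a from control were smaller in size than those of miR-148a, and the difference between the members was not tested. The signal of miR-130a was lower, so that background, which was not subtracted, made up more of it. In the controls miR-130a was 7.82, 7.83 and 7.83, with a mean of 7.82 ± 0.0085 (SD, n = 3). At 25 mg/kg/day it was 7.77, 7.81, 7.77, 7.74 and 7.75, with a mean of 7.77 ± 0.03 (SD, n = 5). All 5 arrays lay below every control, as did those of 4.35% of the tested miRNAs, although replicate 2 was only just below control 1. This held for the mean of the 2 probes and for neither alone. A_54_P1045 had 2 of 5 arrays below every control, and A_54_P1044 had 3 below and 1 above. The SD of the controls was 0.06 and 0.04 for these single probes.

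At 50 mg/kg/day miR-130a was 7.68, 7.77, 7.73, 7.86 and 7.72, with a mean of 7.75 ± 0.07 (SD, n = 5). Here replicate 4 lay above the controls and the other 4 arrays below. At 75 mg/kg/day it was 7.61, 7.71, 7.65, 7.76 and 7.76, with a mean of 7.70 ± 0.07 (SD, n = 5), and all 5 lay below every control. Of the single probes at this dose, A_54_P1044 had all 5 arrays below every control and A_54_P1045 had 3. The order of the means followed the dose, but each neighbouring pair of dosed groups overlapped.

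The change of miR-130a from control was -0.05 ± 0.04 (log2 change ± SE, interval -0.14 to 0.04) at 25 mg/kg/day and -0.08 ± 0.05 (interval -0.18 to 0.02) at 50 mg/kg/day. The adjusted P in limma was 0.578 and 0.382. At 75 mg/kg/day it was -0.14 ± 0.05 (interval -0.24 to -0.04, adjusted P = 0.0669), or -9.24%, and past the threshold without replicate 5 at that dose (-0.18, adjusted P = 0.0384). These signs depended on the scale, since on the background-subtracted processed signal of the spots the changes at the lower doses were 0.013 and 0.019. On the total gene signal of the same scanner software all were above 0, at 0.0072, 0.08 and 0.11, each below the median of all tested miRNAs at 0.04, 0.14 and 0.18. In rank miR-130a was the 19th, 17th and 13th lowest of 69.

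Thus 0 of the 2 tested members passed an adjusted P of 0.05 in limma at 25, 50 or 75 mg/kg/day. Over all 69 miRNAs the share called in either direction was 0%, 2.9% and 5.8% at these doses. At an unadjusted P under 0.05 there were 1, 1 and 2 members, where the share of all tested was 10.1%, 15.9% and 26.1%.

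**Figure D3:**
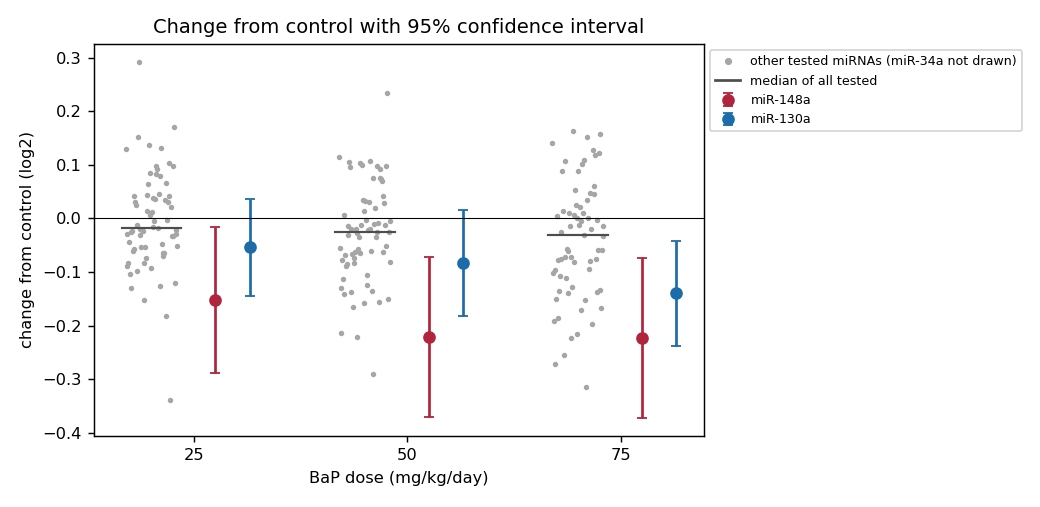
Change from control (log2, vertical axis) at each BaP dose (mg/kg/day) for miR-148a (red) and miR-130a (blue) with 95% confidence intervals, beside the other tested miRNAs (grey, miR-34a not drawn) and the median of all 69 (line). miR-148a sits near the low edge of the grey points and miR-130a inside them; on the background-subtracted total gene signal miR-130a turned sign at every dose and miR-148a at 75 mg/kg/day.

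Across dose, miR-130a fell with a slope of -0.05 ± 0.01 per 25 mg/kg/day (log2 ± SE, interval -0.07 to -0.02, adjusted P = 0.0466 in limma), a slope that was 0.04 on the background-subtracted total gene signal. The slope of miR-148a was steeper and less certain, at -0.07 ± 0.02 (interval -0.12 to -0.02, adjusted P = 0.0694), and was 0.01 on that scale. So 1 of the 2 tested members was past the threshold, where 10.1% of all 69 miRNAs were past it in either direction and 7.25% downwards. The median slope of all tested was -0.01, and miR-130a was 13th and miR-148a 6th lowest.

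The call for miR-130a was close to the threshold and was lost under 10 of 13 alternative settings. The slope was -0.0082 on the processed signal (adjusted P = 0.941), -0.12 ± 0.12 with centred array medians (0.762) and -0.04 with quantile normalisation (0.349), and adjusted P was 0.0719 with no filter and 0.114 with no slide term. The call was kept without replicate 1 at 25, replicate 3 at 50, replicate 4 at 75 or replicate 5 at 75 mg/kg/day, and lost when any of the other 14 arrays was left out, with an adjusted P of up to 0.189 without replicate 1 at 75 mg/kg/day. For miR-148a the adjusted P of the slope was 0.0381 without replicate 1 at 25 and 0.0401 without replicate 5 at 75 mg/kg/day. Without control 1 the slope of miR-148a was -0.04. Leaving out the 2 arrays with the fewest spots well above background, replicates 4 and 5 at 25 mg/kg/day, gave an adjusted P of 0.0570 for both members.

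Within slides miR-130a, as the mean of its 2 probes, was lower than control in all 6 comparisons of the normalised signal. From the lowest to the highest dose the differences were -0.02, -0.09 and -0.15 on slide 1 and -0.07, -0.11 and -0.07 on slide 3. They were larger at each higher dose on slide 1 and had no order on slide 3, where 50 and 75 mg/kg/day had 1 array each. Its 2 probes had the same sign in the fit, with the probe A_54_P1045 at -0.04, -0.04 and -0.12 and the probe A_54_P1044 at -0.07, -0.13 and -0.16. Within slides A_54_P1044 was just above control at 25 mg/kg/day on slide 1, by 0.0022. A_54_P1045 was so at 50 mg/kg/day on slide 3, by 0.0092, and the remaining within-slide differences of both probes were below 0. No probe of miR-130a passed the threshold over the 112 probes, the lowest adjusted P being 0.0577 for the slope of A_54_P1044.

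Exact two-sided permutation tests of the normalised signal were run beside the limma fits. Ignoring slide, the exact permutation P for miR-148a was 0.125, 0.0179 and 0.0893 at the low, middle and high dose, where 0.0179 is the smallest that the 56 arrangements allow. For miR-130a the exact permutation P was 0.0536, 0.125 and 0.0357. With arrays exchanged only within slides, the exact P was 0.133, 0.111 and 0.111 for miR-148a and 0.0333, 0.111 and 0.111 for miR-130a. Slide 2, which had no control, took no part in these tests within slides. The smallest P allowed within slides was 0.0333 at 25 mg/kg/day and 0.111 at the higher doses, so that the latter could not pass 0.05. Over the family of 12 such exact tests every adjusted P was 0.133.

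Ratios within an array do not depend on the factor by which an array is scaled, and they set the members against each other. The background-subtracted total gene signal of miR-148a over that of miR-130a was 2.03, 2.03 and 2.20 in the controls. It was 1.65, 1.72, 2.49, 2.16 and 2.07 at 25 mg/kg/day, 1.63, 1.75, 2.00, 1.81 and 2.06 at 50 mg/kg/day, and 1.74, 1.59, 2.23, 2.06 and 2.07 at 75 mg/kg/day. The value of the ratio has no meaning as an amount, because the probes differ, but its change between arrays has. On slide 1 all 6 dosed arrays, at 1.59 to 1.75, lay below control 1 at 2.03, while on slide 3 the 5 dosed arrays, at 2.06 to 2.49, overlapped the controls at 2.03 and 2.20. The lower miR-148a relative to miR-130a was thus seen on the slide with a single control and not on slide 3, and the difference between slides was not tested.

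Set against miR-122, the hepatocyte miRNA, neither member separated the groups over all slides. Such a share also moves with miR-122 itself, whose change on the normalised signal was 0.15, -0.02 and 0.11 at 25, 50 and 75 mg/kg/day. miR-148a was 2.52% ± 0.376 (SD, n = 3) of the miR-122 total gene signal in the controls and 2.19% ± 0.491, 2.16% ± 0.302 and 2.13% ± 0.435 (SD, n = 5 each) at 25, 50 and 75 mg/kg/day. miR-130a was 1.21% ± 0.210 in the controls and 1.13% ± 0.404, 1.18% ± 0.236 and 1.14% ± 0.377 at these doses. The ranges of all dosed groups overlapped that of the controls, for miR-148a at 1.65% to 2.72%, 1.93% to 2.67% and 1.69% to 2.75% against 2.24% to 2.94%. The shares also differed between slides, since the 6 dosed arrays of slide 1 averaged 1.51% for miR-130a and the 5 of slide 3 averaged 0.888%. Within slide 1 all dosed arrays lay below control 1 for miR-148a (2.15% to 2.75% against 2.94%) but on both sides of it for miR-130a (1.31% to 1.65% against 1.45%). Within slide 3 they lay below both controls for miR-130a (0.765% to 0.972% against 1.07% and 1.11%) and overlapped them for miR-148a. The total gene signal itself ranged 4.67-fold for miR-148a, 5.20-fold for miR-130a and 4.07-fold for miR-122 over the 18 arrays.

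**Figure D4:**
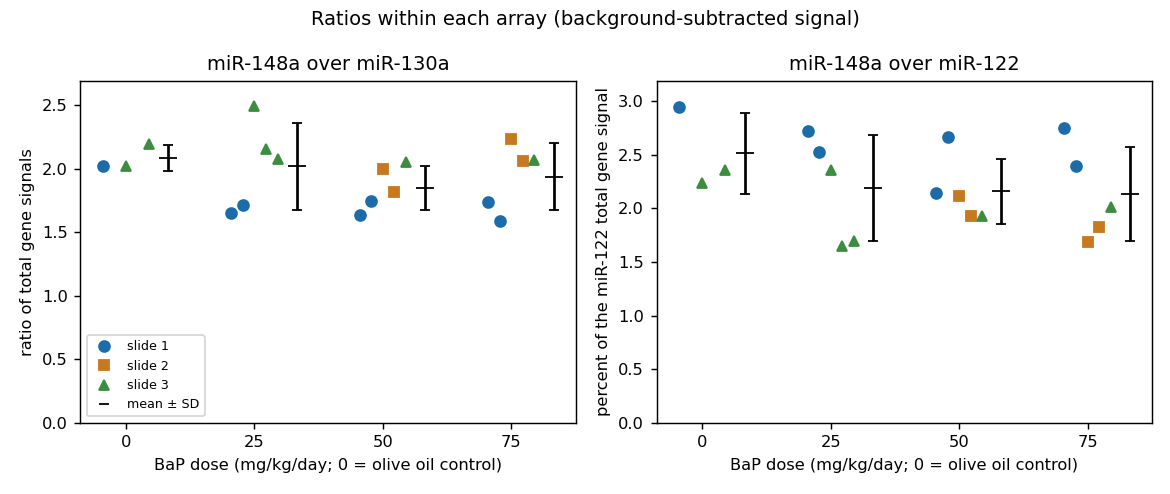
Ratio of background-subtracted total gene signals within each array by BaP dose (mg/kg/day), for miR-148a over miR-130a (left) and for miR-148a as a percent of miR-122 (right), with slide as marker and colour and the mean ± SD in black. On slide 1 every dosed array had a lower miR-148a to miR-130a ratio than its control, while on slide 3 dosed and control arrays overlapped.

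The members that did not pass the filter gave no change that could be read as one. With no filter, over 576 names, miR-148b differed from control by -0.04 at each dose (adjusted P in limma of 0.526, 0.588 and 0.446). miR-152 differed by -0.03, -0.07 and -0.10 (adjusted P of 0.850, 0.575 and 0.282), with a slope of -0.03 (adjusted P = 0.222). For miR-130b the differences were -0.02, -0.02 and -0.0037. Since background was not subtracted, changes this close to background are smaller than those of the RNA would be. The signals of miR-148a and miR-130a also contain background, so the limit holds for their changes too, to a lesser degree. No fold is given for these members, whose signal was mostly not well above background in every group.

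The tested miRNAs that followed the members most closely were chosen by the SD of the log2 ratio over the 18 arrays after slide means were removed. For miR-148a these were miR-7a (SD 0.0762) and let-7c (0.0869), where the median over 68 miRNAs was 0.136, and miR-130a was 4th at 0.0923. For miR-130a they were miR-100 and miR-101a (both 0.0624), with a median of 0.105, and miR-148a was 25th of 68. Of these 4 neighbours, let-7c passed the threshold at 50 and 75 mg/kg/day, at -0.21 and -0.27 (adjusted P of 0.0458 and 0.0053 in limma), and the other three did not at any dose. Its call at 50 mg/kg/day was lost under each of 6 other scalings and corrections (adjusted P of 0.0632 to 0.707). At 75 mg/kg/day the let-7c call was lost with centred array medians (adjusted P = 0.627), on the processed signal (0.296) and on the total gene signal, where the change was -0.03 (0.768). The SD of miR-130a itself within slides was 0.0661, close to these values.

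Of 11 markers of cell types in a list, 6 were tested: miR-122 (hepatocyte), miR-451 and miR-144 (red blood cell), miR-223 (myeloid), miR-126-3p (endothelium) and miR-199a-3p (mesenchymal and stellate cell). miR-199a-3p passed the threshold at 75 mg/kg/day, at -0.22 ± 0.05 (adjusted P = 0.0093 in limma), and the other 5 did not at any dose. The summed linear normalised signal of the blood and immune markers miR-451, miR-144 and miR-223 ranged over 600 to 863 in the controls and over 483 to 817, 522 to 918 and 358 to 1200 at 25, 50 and 75 mg/kg/day. That of miR-122 ranged over 11407 to 11728 in the controls and over 10767 to 14540, 10296 to 12404 and 11188 to 14679 at these doses. The dosed ranges thus contained or overlapped those of the controls. The lymphoid marker miR-150 and the mesenchymal markers miR-214, miR-143 and miR-145 were present on 0 arrays, and the lymphoid marker miR-142-3p on 7. On the normalised signal miR-199a-3p moved in the same direction as miR-148a and miR-130a, and its part in their values was not tested. The direction was not shared on the total gene signal at 75 mg/kg/day, where miR-199a-3p was at -0.37, miR-148a at 0.03 and miR-130a at 0.11. The miR-199a-3p call was itself lost with quantile normalisation (adjusted P = 0.109), centred array medians (0.627), the processed signal (0.154) and the total gene signal, where the change was -0.37 ± 0.24 (0.308).

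The scale changed the sign of some of these changes. At the highest dose both members were below the median of all tested miRNAs under each of 13 alternative settings, with the smallest distance at 0.115 for miR-148a and 0.0666 for miR-130a. The settings draw on the same arrays, and how many other tested miRNAs also stayed below the median was not counted. Relative to zero, miR-148a was lower in 12 of the 13 and miR-130a in 12, the exception for both being the background-subtracted total gene signal. The median of all tested miRNAs at that dose was -0.25 with arrays centred on their medians, 0.10 on the processed signal, 0.18 on the total gene signal and -0.11 in the deposited table.

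**Figure D5:**
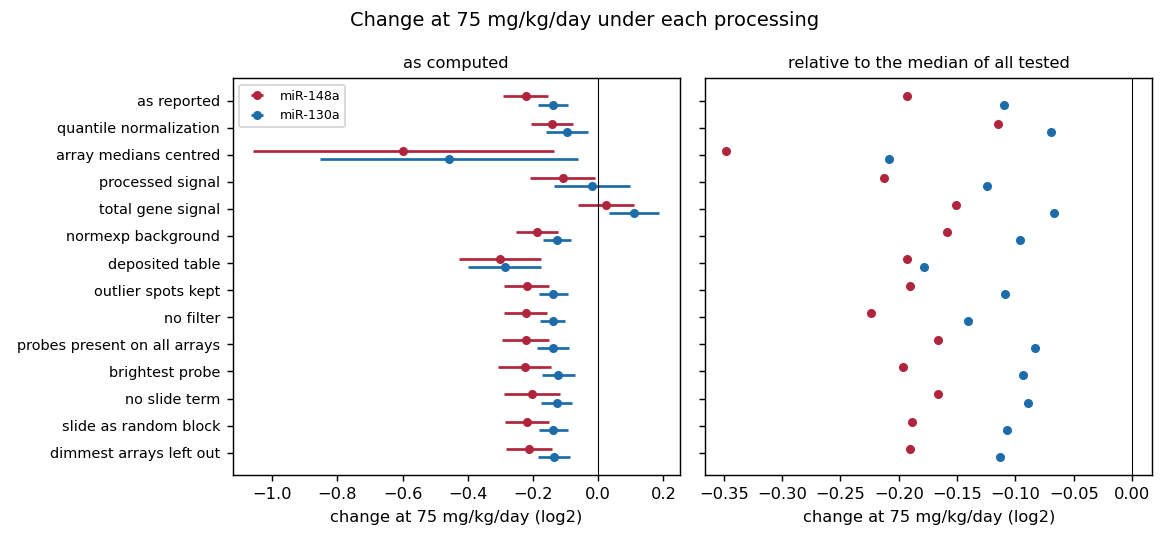
Change from control at 75 mg/kg/day (log2, horizontal axis) of miR-148a (red) and miR-130a (blue) under each processing (rows), as computed with its SE (left) and relative to the median of all tested miRNAs (right). Both turned above 0 on the total gene signal, at 0.03 and 0.11, and both stayed left of the median in every row.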

How the data were processed

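Small-RNA-enriched total RNA from liver was labelled with cyanine 3 by the authors, each sample was hybridised on its own 1-colour Agilent array, and images were extracted with Agilent Feature Extraction 10.7.3.1. The deposited spot intensities are linear and not normalised between arrays. The authors also deposited a table of log2 values, cyclic lowess normalised without background subtraction per their methods, which was an alternative only because its centring is unknown.

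The median signal of each non-control spot was taken to log2 without background subtraction and normalised by cyclic loess. Outlier spots were removed, the median over 10 spots of a probe and the mean over present probes were taken, and 112 probes of 69 names passed the filter. limma 3.58.1 in R 4.3.3 was fitted to all 18 arrays with slide as a block, in place of MAANOVA, with Benjamini-Hochberg adjustment over 69 names and a threshold of 0.05, two-sided, after tests on simulated data. P-values measure the spread between animals with 1 array each. The members, the lists and the naming rule were chosen with earlier results of these data known. Named were the members, listed relatives on the array, the 2 miRNAs most like each tested member, cell type markers past the threshold and miR-34a. Alternatives were other normalisations, background corrections, filters, probe and slide rules and leaving out each array. The number of arrays limits the precision.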

Additional observations from a re-analysis of the deposited data

Results flagged for a closer look

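The lowest array of miR-148a at 50 mg/kg/day, replicate 1 on slide 1, lay apart from the other 4. It was at 8.28, the nearest at 8.47 and the farthest at 8.52, so that its gap made up 0.778 of the range of the group, above Dixon's critical value of 0.71. This was 1 of 15 groups of 5 arrays checked, and chance alone marks about 1 in 20. Without it the miR-148a change at 50 mg/kg/day was -0.20 (adjusted P = 0.215 in limma).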

How the results depend on the processing

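Changes of miR-148a at 25 and 50 mg/kg/day kept their direction under all 13 alternatives. On the total gene signal miR-148a reversed at 75 mg/kg/day (0.025) and in its slope (0.011), and miR-130a at 25, 50 and 75 mg/kg/day (0.0072, 0.085 and 0.11) and in its slope (0.041). On the processed signal miR-130a reversed at 25 (0.013) and 50 mg/kg/day (0.019). Deposited log2 values put 1 member past the threshold at 25 mg/kg/day, miR-148a at -0.39 (adjusted P = 0.0493). In the trend 0 members passed under quantile normalisation, centred array medians, the processed and total gene signals, normexp background, the deposited table, no filter, the brightest probe, no slide term, and without the dimmest arrays, the last chosen after seeing the data. The count of exact tests under 0.05 before adjustment, 2 of 6, became 0 under quantile normalisation, centred array medians, the processed and total gene signals, the deposited table and the brightest probe, and 3 with normexp background. Leaving out each array gave counts of 0 to 0 at 25, 0 to 1 at 50, 0 to 2 at 75 mg/kg/day and 0 to 2 in the trend. At 75 mg/kg/day, 1 miRNA was called higher and 3 lower, against 4 and 0 on the processed signal, 9 and 0 on the total gene signal and 1 and 0 with centred medians. The causes were not tested. No paired analysis was possible because each animal received 1 dose and had 1 array. Signal over background limits miR-148b, miR-152 and miR-130b.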
